A study of Mus musculus with 8 samples.

Results

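The mRNAs of 10 plasma carrier proteins that the liver secretes were followed in the livers of 8 male C57BL/6 mice. The genes were *Alb*, *Trf*, *Ttr*, *Rbp4*, *Gc*, *A1bg*, *Ambp*, *Ahsg*, *Hpx* and *Fetub*, 10 of the 24940 genes counted, and they were chosen by name with earlier results of the same contrast known. Their own levels and fold changes are therefore given as a description, with no p-value. Poly(A) RNA was sequenced from 4 FXRKO livers (*Bcl6* fl/fl with homozygous loss of *Fxr* in the whole body and no Cre) and from 4 BCL6LKOFXRKO livers, which carried the same *Bcl6* fl/fl and *Fxr* alleles together with *Alb*-Cre. *Alb*-Cre expresses Cre recombinase from the albumin promoter and so deletes the floxed *Bcl6* in hepatocytes. All 8 mice thus lacked *Fxr* and carried floxed *Bcl6*, and the 2 groups differed in Cre and in *Bcl6*, whose parts cannot be told apart in this design. Ages are not stated in the sources used here, and no liver with intact *Fxr* was analysed here. The livers are numbered here from 1 to 4 for FXRKO and from 5 to 8 for BCL6LKOFXRKO. The animal numbers in the labels differ for all livers and name no litter or batch. They are consecutive for livers 1 and 6, and livers 2, 7, 3, 8 and 4 form 1 unbroken run in that order. Whether any of these mice were related is not stated. Nothing in the labels ties 2 livers to 1 animal.

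The liver supplies nearly all of the carrier proteins of blood plasma. Albumin holds most of the colloid osmotic pressure and binds fatty acids, bilirubin and bile acids, and the other carriers each take a narrower cargo, such as iron, haem, thyroid hormone, retinol, vitamin D or calcium phosphate. Hepatocytes transcribe these genes at very high rates through promoters bound by liver-enriched factors, HNF1 and C/EBP among them. In inflammation the plasma levels of hemopexin and orosomucoid rise, while those of albumin, transthyretin and retinol binding protein fall, which divides the carriers into positive and negative acute-phase proteins.

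The 150 bases just upstream of the start site are shown for 3 of the genes, because *Alb* had the largest share of counts, *A1bg* the largest difference between genotypes, and *Gc* lies on the same chromosome as its relative *Alb*. The sequences are 5′ to 3′ on the gene's own strand, from RefSeq windows on GRCm38.p6 (mm10), and capitals mark the motifs found. *Alb* lies at chr5:90460720-90460869 on the plus strand, with a C/EBP motif (TTGCNNAA, read here on the opposite strand) from base -94 and an HNF1 motif (GTTAATNAT) from base -32. *Gc* lies at chr5:89457899-89458048 on the minus strand, with the same 9 HNF1 bases as *Alb* from base -52. *A1bg* lies at chr15:60921271-60921420 on the minus strand, with a C/EBP motif from base -136 and TTCCAGGAA, a match to the TTCNNNGAA element that STAT5 and BCL6 both recognise, from base -84.
Alb: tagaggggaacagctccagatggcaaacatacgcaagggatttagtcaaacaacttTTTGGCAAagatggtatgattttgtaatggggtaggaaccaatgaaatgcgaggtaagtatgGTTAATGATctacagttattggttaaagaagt
Gc: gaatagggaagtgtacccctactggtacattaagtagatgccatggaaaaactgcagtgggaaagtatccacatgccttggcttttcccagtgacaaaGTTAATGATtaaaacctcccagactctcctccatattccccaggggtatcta
A1bg: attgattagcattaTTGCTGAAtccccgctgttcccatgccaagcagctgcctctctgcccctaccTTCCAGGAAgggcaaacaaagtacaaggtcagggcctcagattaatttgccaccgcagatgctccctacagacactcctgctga

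Promoter windows of 300 bases (250 before to 50 after the start) were at hand for 8 of the 10 genes as 10 windows, because *Rbp4* and *Fetub* had 2 each, beside 32851 windows in all, and each motif was searched on both strands. GTTAATNAT was present in 2 of the 10 windows (*Alb* and *Gc*) and in 0.801% of all windows. TTGCNNAA was present in 5 of the 10 (*Alb*, *A1bg*, *Ahsg*, *Hpx* and *Rbp4*) and in 10.8% of all windows, and the *Rbp4* match lay in the window of another start than that of the counted transcript. TTCNNNGAA was present in 1 of the 10 (*A1bg*) and in 8.3% of all windows. The HNF4A motif CAAAGTCCA and the FXR inverted repeat GGTCANTGA were in none of the 10, against 0.475% and 0.84% of all windows. A match is a string of letters in the window and says nothing about binding.

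The livers held between 7586241 and 11839503 counts on genes, and between 85.1% and 88.3% of the aligned reads fell on genes. Values below are CPM, the usual depth-scaled count, with library totals corrected by a TMM factor that rests on the bulk of genes, or shares, which are percent of all raw counts on genes. The factors lay between 1.05 and 1.06 in FXRKO and between 0.901 and 0.982 in BCL6LKOFXRKO livers, and the 50 most counted genes took 31.2% to 32.6% of the counts in the former and 41.7% to 45.1% in the latter. With these factors, a ratio of BCL6LKOFXRKO to FXRKO is lower as a share than as CPM, and both are given where they part. *Bcl6*, the targeted gene, was at 56.3, 65.2, 21.2 and 55.6 CPM in FXRKO livers and at 11.9, 4.61, 5.55 and 7.72 CPM in BCL6LKOFXRKO livers (log2 fold change -2.72, SE 0.40, adjusted p = 0.00123 from edgeR). *Nr1h4*, the gene of FXR, was still counted and had a log2 fold change of -0.46 (SE 0.10, adjusted p = 0.00497 from edgeR). No 2 livers of a genotype agreed within sampling noise (chi-square of 10.7 to 49.3 for each degree of freedom).

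The 10 carrier mRNAs together took a little over 10 of every 100 counts in FXRKO livers and more than 20 of every 100 in BCL6LKOFXRKO livers. Their summed share was 10.11%, 10.10%, 10.04% and 10.27% in FXRKO livers 1 to 4 and 21.7%, 22.7%, 20.8% and 20.5% in BCL6LKOFXRKO livers 5 to 8. The means were 10.1% ± 0.0985 and 21.4% ± 0.990 (SD, n = 4 each), a difference of 11.3 percentage points. The sum was nearly the same in the 4 FXRKO livers although single genes within it varied more. *Alb* made up 71.5% of the difference and *Trf* 19.7%, so both together carried most of it, while *Hpx*, *A1bg*, *Gc* and *Ahsg* made up 3.96%, 2.67%, 2.59% and 2.28%. Without *Alb*, the other 9 genes took 5.43% ± 0.496 of counts in FXRKO and 8.64% ± 0.708 in BCL6LKOFXRKO livers (SD, n = 4 each). Without *Alb* and *Trf*, the remaining 8 took 3.48% ± 0.264 and 4.48% ± 0.445 (SD, n = 4 each), and the lowest BCL6LKOFXRKO liver, at 3.998%, still lay above the highest FXRKO liver, at 3.80%.

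**Figure D1:**
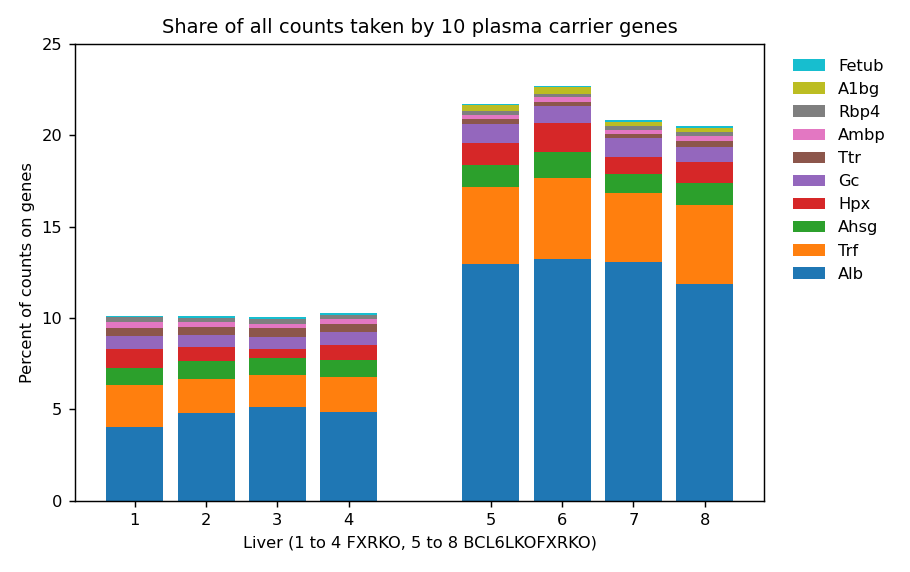
Stacked bars of the percent of all counts on genes (vertical axis) that fell on each of the 10 carrier genes, 1 bar per liver (horizontal axis). The 4 FXRKO bars end between 10.04% and 10.27% and the 4 BCL6LKOFXRKO bars between 20.5% and 22.7%, and the blue *Alb* segment accounts for most of the gap.

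Of the 10 genes, all of which passed the expression filter (*A1bg* through its BCL6LKOFXRKO livers alone), 6 were among the 1739 genes called higher in BCL6LKOFXRKO livers (14.1% of 12340 tested) and *Ttr* was among the 1214 called lower (9.84%). Calls required both a log2 fold change beyond 0.5 in size and an edgeR p, adjusted over all tested genes, under 0.05. The 6 were *Alb*, *Trf*, *Gc*, *A1bg*, *Ahsg* and *Hpx*. By the livers' values alone, 7 of the 10 had all 4 BCL6LKOFXRKO livers above all 4 FXRKO livers, which held for 16.1% of all tested genes, and *Ttr* and *Rbp4* had all 4 below, which held for 15.2%. Because the genes were picked with this contrast known, nothing is read from these counts. The median log2 fold change of the 10 was 0.59, with 7 above 0, beside 0.01 over all tested genes. Scaling by total counts alone shifted the median of all genes by -0.16 and moved the higher calls from 58.9% to 37.3% of all calls, and every log2 fold change below should be read against that shift.

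**Figure D2:**
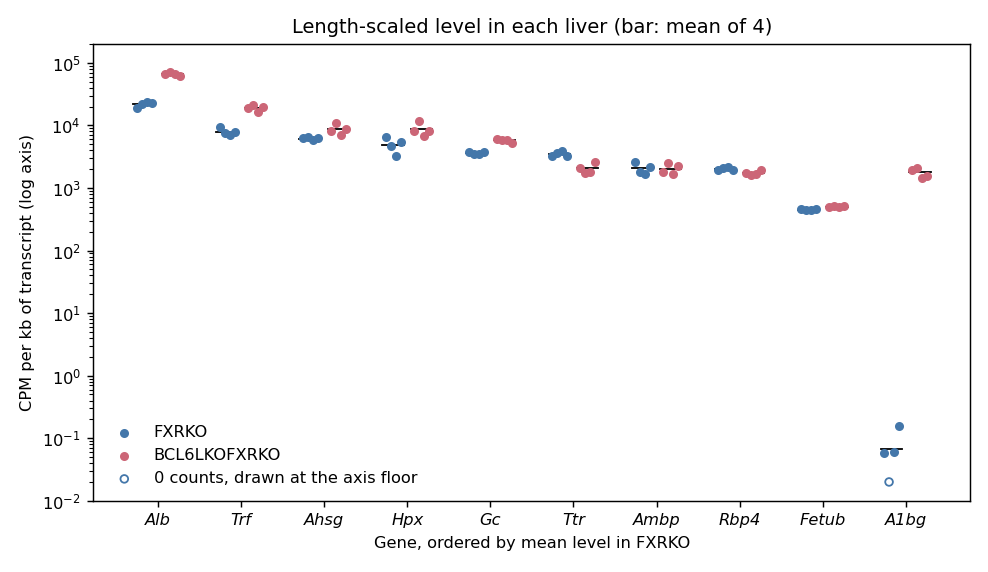
Level of each carrier gene in each liver, as CPM per kb of transcript on a log axis, with genes ordered by their FXRKO mean, dots for livers and short bars for the mean of 4. *A1bg* has dots near the foot of the axis in FXRKO livers and beside those of *Rbp4* in BCL6LKOFXRKO livers, while the dots of *Ambp* and *Fetub* lie at nearly the same height in both genotypes.

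*Alb* and *Gc* encode relatives of 1 gene family, albumin and the vitamin D binding protein, which also binds actin released from damaged cells. *Alb* (NM_009654, mm10 chromosome 5 from 90460870 to 90476602, plus strand, 15 exons) was at 38238, 45419, 48536 and 46024 CPM in FXRKO livers and at 133860, 146950, 133340 and 127790 CPM in BCL6LKOFXRKO livers. The groups were far apart, and no liver of either genotype lay near the other group. The fitted log2 fold change was 1.60 (SE 0.13), a 3.04-fold higher level, and the share of counts was 2.72-fold higher, at 4.70% ± 0.475 and 12.8% ± 0.611 (SD, n = 4 each). *Gc* (NM_008096, chromosome 5 from 89417511 to 89457898, minus strand, 13 exons) was at 6788, 6334, 6264 and 6668 CPM in FXRKO livers and at 11025, 10569, 10582 and 9270 CPM in BCL6LKOFXRKO livers. It too was higher in all 4, by a log2 fold change of 0.67 (SE 0.12, 1.59-fold), which was less than that of *Alb*. The count ratio of *Alb* to *Gc* was 5.63 to 7.75 in FXRKO livers and 12.1 to 13.9 in BCL6LKOFXRKO livers, so the 2 relatives drew apart within each liver, whatever the scaling.

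The neighbours of *Alb* on chromosome 5 are *Afp* (alpha-fetoprotein, the albumin of fetal liver) and *Afm* (afamin, a carrier of vitamin E), with gaps of 14111 bases from *Alb* to *Afp* and 10041 bases from *Afp* to *Afm*. *Afp* stayed low, at 2.25 ± 1.04 CPM in FXRKO and 1.70 ± 0.480 CPM in BCL6LKOFXRKO livers (SD, n = 4 each), with a log2 fold change of -0.43 (SE 0.37, adjusted p = 0.409 from edgeR). *Afm* had a log2 fold change of 0.33 (SE 0.11, adjusted p = 0.0415 from edgeR), a size under the limit of 0.5. Neither of these family members was called. *Gc* lies 1002971 bases from *Alb*, with 6 genes between them.

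*Trf* and *Hpx* encode carriers of iron and of haem. Transferrin, the product of *Trf*, moves iron through plasma to cells that take it up by the transferrin receptor, and hemopexin binds free haem and brings it to the liver. *Trf* (NM_133977, chromosome 9 from 103208876 to 103230286, minus strand, 17 exons) was at 21573, 17700, 16190 and 18188 CPM in FXRKO livers and at 43273, 49118, 38228 and 46226 CPM in BCL6LKOFXRKO livers. The lowest BCL6LKOFXRKO liver stood well above the highest FXRKO liver, and *Trf* was second in counts to *Alb* in both genotypes. Its log2 fold change was 1.26 (SE 0.14, 2.40-fold), and its share rose from 1.94% ± 0.237 to 4.17% ± 0.293 (SD, n = 4 each). The ratio of *Alb* to *Trf* counts overlapped between genotypes, at 1.77 to 2.998 and 2.76 to 3.49.

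*Hpx* (NM_017371, chromosome 7 from 105591611 to 105600116, minus strand, 10 exons) was at 9563, 6769, 4682 and 7840 CPM in FXRKO livers and at 12145, 17366, 9901 and 12075 CPM in BCL6LKOFXRKO livers. Liver 3 was lowest and liver 6 highest, and the 2 groups were separated only by the small step from 9563 to 9901 CPM. As a share of counts they overlapped, with 0.497% to 1.01% in FXRKO and 0.971% to 1.56% in BCL6LKOFXRKO livers. The log2 fold change was 0.84 (SE 0.22, 1.78-fold), the largest error among the 9 carriers counted in both genotypes.

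*Ttr* and *Rbp4* encode partners in plasma. Transthyretin carries thyroxine and holds retinol binding protein, the carrier of vitamin A, in a complex large enough to escape filtration by the kidney. *Ttr* (NM_013697, chromosome 18 from 20665250 to 20674326, plus strand, 4 exons) was at 3964, 4389, 4691 and 3899 CPM in FXRKO livers and at 2579, 2127, 2146 and 3169 CPM in BCL6LKOFXRKO livers. It was the one carrier called lower, with every BCL6LKOFXRKO liver under every FXRKO liver, a log2 fold change of -0.76 (SE 0.15) and a level of 0.592 times that of FXRKO. By counts it moved from rank 26 to rank 44 among all genes. *Rbp4* (NM_001159487, chromosome 19 from 38116620 to 38125321, minus strand, 6 exons) was at 2431, 2539, 2691 and 2364 CPM in FXRKO livers and at 2178, 1988, 2068 and 2357 CPM in BCL6LKOFXRKO livers. Here the groups only just parted, at 2364 and 2357 CPM, and the log2 fold change of -0.22 (SE 0.12) was not called. The count ratio of *Ttr* to *Rbp4* was 1.63 to 1.74 in FXRKO and 1.04 to 1.34 in BCL6LKOFXRKO livers, with no overlap, so *Ttr* was lower against its partner as well as against *Alb*, whose count per *Ttr* count went from 9.65 to 11.8 up to 40.3 to 69.1.

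*Ahsg* and *Fetub* encode the fetuins A and B, cystatin relatives in adjacent genes. Fetuin A keeps calcium phosphate in solution, and fetuin B inhibits a protease that hardens the egg coat. *Ahsg* (NM_013465, chromosome 16 from 22892015 to 22899451, plus strand, 7 exons) was at 9289, 9656, 8645 and 9315 CPM in FXRKO livers and at 12434, 16353, 10595 and 13040 CPM in BCL6LKOFXRKO livers. All 4 BCL6LKOFXRKO livers were above the FXRKO livers, with liver 6 far above the other three. The log2 fold change of 0.51 (SE 0.14, 1.42-fold) stood just past the limit of 0.5, and it was 0.37 without liver 6 and 0.34 with total counts alone, where the call was lost. A gene on the opposite strand of *Ahsg*, *Gm30505*, held 6240 to 10936 counts, 7.61% to 8.08% of the *Ahsg* count of the same liver, and reads of the 2 cannot be told apart if the counting did not use strand.

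*Fetub* (NM_021564, chromosome 16 from 22920222 to 22939768, plus strand, 8 exons) was at 728, 702, 686 and 710 CPM in FXRKO livers and at 790, 801, 778 and 791 CPM in BCL6LKOFXRKO livers. These were the tightest groups of the 10, with the highest liver 1.06 and 1.03 times the lowest. The groups did not overlap, but the log2 fold change was 0.16 (SE 0.10), not called, and the share of counts was 0.0746% ± 0.00169 in FXRKO and 0.0747% ± 0.00218 in BCL6LKOFXRKO livers (SD, n = 4 each), with overlap. With total counts alone the log2 fold change was 0.00, so a direction for *Fetub* depended on the scaling. The gap between the 2 fetuin genes is 20770 bases, and *Hrg* (histidine-rich glycoprotein), *Kng2* and *Kng1* (kininogens, the precursors of bradykinin) follow on the same chromosome. None of the 3 was called, with log2 fold changes of -0.35 for *Hrg* (adjusted p = 0.0667 from edgeR), 0.02 for *Kng2* (adjusted p = 0.929) and 0.45 for *Kng1* (adjusted p = 0.0397, under the size limit). Of these 3, 1 was called higher without liver 4 and 1 lower with total counts alone.

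*Ambp* encodes a precursor that is split into alpha-1-microglobulin, a lipocalin that binds haem, and bikunin, a protease inhibitor. *Ambp* (NM_007443, chromosome 4 from 63143275 to 63154172, minus strand, 10 exons) was at 3267, 2248, 2093 and 2698 CPM in FXRKO livers and at 2263, 3099, 2068 and 2829 CPM in BCL6LKOFXRKO livers. The groups overlapped over nearly their whole range, and the means were 2576 ± 527 and 2565 ± 480 CPM (SD, n = 4 each). The log2 fold change was -0.01 (SE 0.17), and its sign changed with the filter and with the liver left out, between -0.12 and 0.12. It was the one carrier of the 10 whose genotypes overlapped on CPM.

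**Figure D3:**
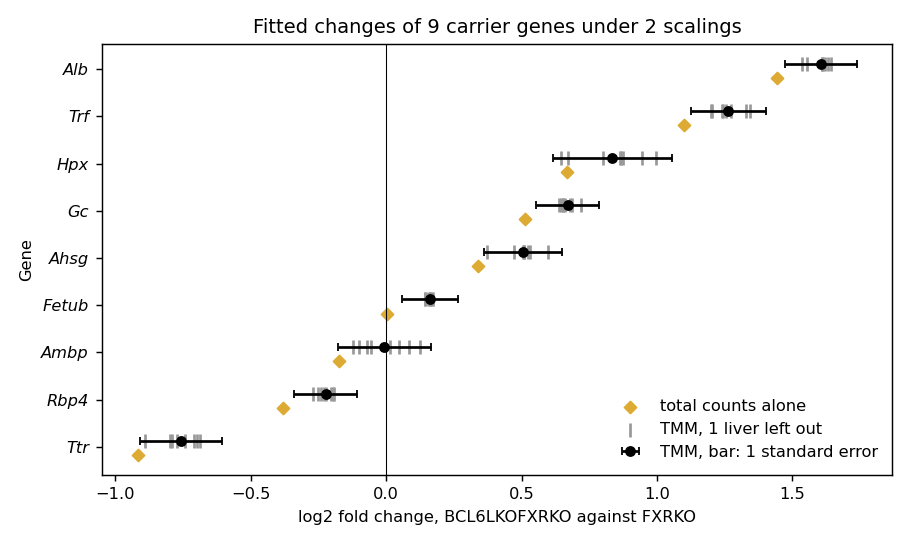
Fitted log2 fold change of BCL6LKOFXRKO against FXRKO livers (horizontal axis) for the 9 carriers counted in both genotypes, as black dots with bars of 1 standard error, grey ticks for fits without 1 liver, and gold diamonds for scaling by total counts alone. The dots run from 1.60 for *Alb* to -0.76 for *Ttr*, and the diamonds lie to the left of the dots throughout, so that the diamond of *Fetub* falls at 0.00.

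*A1bg* encodes alpha-1B-glycoprotein, an immunoglobulin-fold plasma protein that binds a small cysteine-rich protein and whose mRNA is known to be higher in female than in male mouse liver. *A1bg* (NM_001081067, chromosome 15 from 60917589 to 60921270, minus strand, 7 exons) had 1, 0, 1 and 3 raw counts in FXRKO livers and 35312, 31625, 27079 and 30684 raw counts in BCL6LKOFXRKO livers. Nothing lay between: the gene was at most at 3 counts, the limit that a count of 0 allows, in each FXRKO liver and among the 31 most counted genes of BCL6LKOFXRKO livers, against rank 14640 in FXRKO. The pooled 124700 counts against 5 gave a ratio of 21234 after division by the total counts, with an exact 95% interval from 9099 to 65397 that covers counting error only. In BCL6LKOFXRKO livers the level was 3205 ± 584 CPM and the share 0.302% ± 0.0498 (SD, n = 4), a share above that of *Ttr*, *Rbp4* or *Ambp* in the same livers on average. *A1bg* thus went from the least to the sixth most counted of the 10. The TTCNNNGAA element matched in its window was in 8.3% of all windows, and any part of it in this difference was not tested.

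Per kb of transcript, which allows a comparison between genes, the carriers kept most of their order. In FXRKO livers the mean levels were 21798 CPM per kb for *Alb*, 7961 for *Trf*, 6130 for *Ahsg*, 4914 for *Hpx*, 3625 for *Gc*, 3486 for *Ttr*, 2053 for *Ambp*, 2029 for *Rbp4*, 451 for *Fetub* and 0.068 for *A1bg*. In BCL6LKOFXRKO livers they were 66286 for *Alb*, 19114 for *Trf*, 8768 for *Hpx*, 8708 for *Ahsg*, 5766 for *Gc*, 2062 for *Ttr*, 2044 for *Ambp*, 1767 for *A1bg*, 1739 for *Rbp4* and 505 for *Fetub*. *Alb* and *Trf* stood clear of the rest in both genotypes, and the ranges of *Ttr*, *Ambp*, *A1bg* and *Rbp4* overlapped one another in BCL6LKOFXRKO livers. Among the counts of the 10 genes, *Alb* made up 46.5% ± 4.78 in FXRKO and 59.7% ± 2.20 in BCL6LKOFXRKO livers (SD, n = 4 each), *Trf* kept 19.2% ± 2.31 and 19.4% ± 1.22, and *Ttr* went from 4.42% ± 0.443 to 1.11% ± 0.252.

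Within a genotype the carriers did not vary alike. *Hpx* had the widest spread, with the highest liver 2.04 times the lowest in FXRKO (liver 1 against liver 3) and 1.75 times in BCL6LKOFXRKO (liver 6 against liver 7). *Ambp* followed the same livers, at 1.56 and 1.498 times. In BCL6LKOFXRKO, liver 6 was highest and liver 7 lowest for *Trf*, *A1bg*, *Ambp*, *Ahsg*, *Hpx* and *Fetub* alike. In FXRKO, liver 1 was highest and liver 3 lowest for *Trf*, *Gc*, *Ambp*, *Hpx* and *Fetub*. *Ttr* and *Rbp4* formed another pair, both highest in liver 3 and lowest in liver 4 among FXRKO livers, and both highest in liver 8 and lowest in liver 6 among BCL6LKOFXRKO livers. *Alb* was lowest in liver 1, the FXRKO liver where *Hpx* and *Trf* were highest, but in BCL6LKOFXRKO all 3 were highest in liver 6.

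As a description over the 8 livers, with each genotype's mean of log2 CPM removed, Pearson's r was 0.957 for *Ttr* with *Rbp4*, 0.957 for *Trf* with *Ambp*, 0.955 for *Hpx* with *Fetub* and 0.892 for *Ambp* with *Hpx*. It was -0.770 for *Ttr* with *Gc* and -0.486 for *Alb* with *Trf*. The points share libraries and scaling factors. *Orm2* and *Lcn2*, an orosomucoid and a lipocalin that rise in inflammation, were chosen after their values were seen. *Orm2* was at 557, 52.9, 37.7 and 396 CPM in FXRKO livers and at 119, 756, 140 and 175 CPM in BCL6LKOFXRKO livers. *Lcn2* was at 409, 64.5, 20.6 and 235 CPM and at 149, 812, 127 and 188 CPM. Both were highest in livers 1 and 6 and lowest in FXRKO liver 3, as *Hpx* was. *Orm1* was also highest in livers 1 and 6. Among BCL6LKOFXRKO livers *Orm3* was instead highest in liver 8, at 32.9 CPM beside 26.7 CPM in liver 6. The part of these genes in the spread of the carriers was not tested. Livers 1 and 6 have consecutive animal numbers, and livers 2, 7, 3, 8 and 4 form 1 run of such numbers. Along that run *Ttr* deviated by 0.06, -0.20, 0.15, 0.36 and -0.12, and *Rbp4* by 0.02, -0.05, 0.10, 0.14 and -0.08. Livers 3 and 8, where both genes were highest in their genotype, are neighbours in the run. Livers 8 and 4 are neighbours too, and liver 4 was the lowest FXRKO liver for both genes. Whether these patterns go with relatedness or handling of the mice was not tested.

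**Figure D4:**
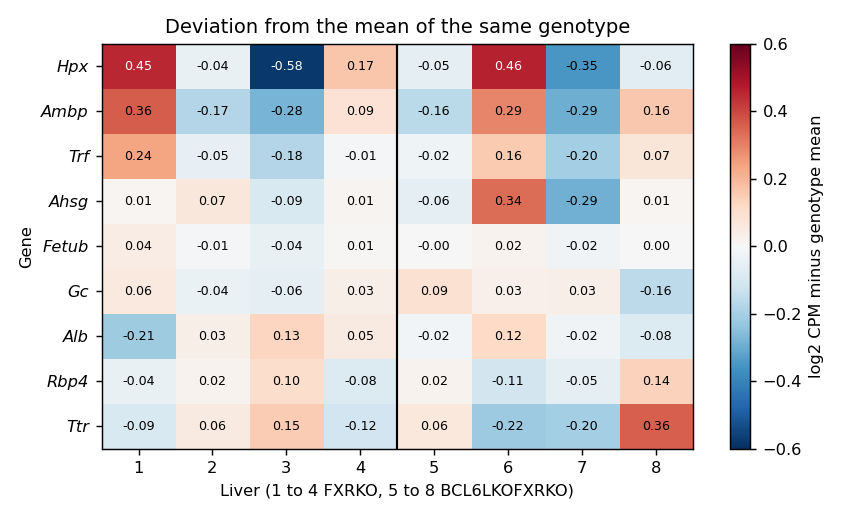
Log2 CPM of each carrier in each liver minus the mean of its genotype (colour scale and printed values), for the 9 carriers counted in both genotypes. Livers 1 and 6 are red for *Hpx*, *Ambp* and *Trf* and liver 3 is blue for them, while *Ttr* and *Rbp4* are red together in livers 3 and 8.

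Genes related to the carriers by family or by handling of their cargo were described by the same fit, with p-values from edgeR adjusted over all 12340 genes. Besides *Ambp* and *Rbp4*, 6 lipocalins were tested and 1 was called higher (16.7%), beside 14.1% of all tested genes. It was *Apom*, the carrier of sphingosine 1-phosphate in lipoproteins, with a log2 fold change of 0.55 (SE 0.15, adjusted p = 0.0162). No lipocalin was called higher without liver 2, 6 or 8 or with total counts alone. Of 11 tested receptors and handling genes, 3 were called higher (27.3%) and none lower, beside 14.1% and 9.84% of all tested genes. Without liver 1, 7 or 8 the number called higher was 5. The number called lower was 1 without liver 1 or 8, with DESeq2 and with no filter, and 2 with total counts alone. The 3 were *Asgr2* and *Asgr1*, the subunits of the asialoglycoprotein receptor that clears desialylated plasma proteins, and *Tfrc*, the transferrin receptor. Their log2 fold changes were 1.62 (SE 0.12, adjusted p = 7.85e-07) for *Asgr2*, 1.07 (SE 0.13, adjusted p = 5.65e-05) for *Asgr1* and 0.83 (SE 0.19, adjusted p = 0.0057) for *Tfrc*. The second transferrin receptor, *Tfr2*, which hepatocytes use to sense iron, was at 528 ± 33.0 and 505 ± 52.6 CPM (SD, n = 4 each; log2 fold change -0.06, adjusted p = 0.709).

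The secretory pathway, which takes the carriers from the ribosome to the cell surface, had 1 gene called higher and 4 lower of 69 tested. The median of its log2 fold changes was -0.04. *Sec11c*, a signal peptidase subunit, was higher by 0.72 on the log2 scale (SE 0.14, adjusted p = 0.00165). *Mia2*, which loads large cargo into vesicles, had a log2 fold change of -0.69 (SE 0.15, adjusted p = 0.00387). *Sec61a2*, a translocon subunit, had -0.69 (SE 0.19, adjusted p = 0.0169) and *Ero1lb*, an oxidase of disulfide bond formation, -0.63 (SE 0.18, adjusted p = 0.0188). These counts were 1.45% and 5.8% of the list, beside 14.1% and 9.84% of all tested genes, the number called lower was 2 without liver 8, and the number called higher was 2 without liver 2. Of 23 tested transcription factors that bind the albumin promoter or belong to the same families, none was called higher and 7 were called lower. The 7 were 30.4% of the list, beside 9.84% of all tested genes called lower, and the list's median was -0.37. The 3 with the smallest adjusted p were *Nfix* (log2 fold change -0.95, SE 0.12, adjusted p = 5.65e-05), *Hlf* (-1.50, SE 0.20, adjusted p = 0.00012) and *Foxa1* (-1.64, SE 0.25, adjusted p = 0.000405). The C/EBP genes *Cebpa* and *Cebpb* were among the 7, at -0.70 (adjusted p = 0.00316) and -0.62 (adjusted p = 0.00328). These 7 were singled out by their calls, the other tested factors were not called, and any part of them in the level of *Alb* was not tested.

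**Figure D5:**
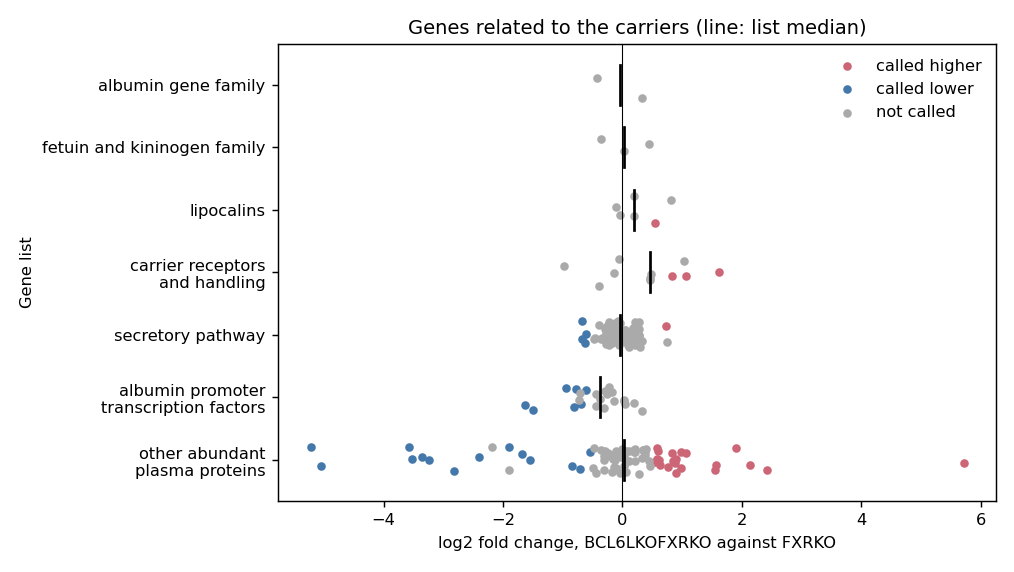
Log2 fold change of BCL6LKOFXRKO against FXRKO livers (horizontal axis) for the tested genes of 7 related lists, 1 dot per gene with the carriers left out, coloured by call, and a line at each list's median. The secretory pathway is packed around its median of -0.04, the transcription factors lie to the left with a median of -0.37, and other abundant plasma proteins spread from -5.22 to 5.72.

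Other abundant plasma proteins moved both ways. Of 81 tested, 21 were called higher (25.9%) and 14 lower (17.3%), beside 14.1% and 9.84% of all tested genes, and their median log2 fold change was 0.03, beside 0.59 for the 10 carriers. With total counts alone the balance turned, to 15 higher and 17 lower. *Serpina6*, the carrier of glucocorticoids, rose from 455 ± 160 to 23907 ± 1742 CPM (SD, n = 4 each), a log2 fold change of 5.72 (SE 0.25, adjusted p = 7.56e-09). *Apoc2* and *F7*, a cofactor of lipoprotein lipase and a clotting factor, rose by 2.42 (SE 0.17, adjusted p = 3.16e-07) and 1.57 (SE 0.12, adjusted p = 1.21e-06) on the log2 scale. The falls with the smallest adjusted p were those of the protease inhibitors *Mug2* (-5.05, SE 0.25, adjusted p = 3.98e-08) and *Mug1* (-3.53, SE 0.23, adjusted p = 2.77e-07) and of the complement protein *C6* (-1.90, SE 0.15, adjusted p = 1.43e-06). This list, like the carriers, was chosen with earlier results of these data known, so nothing is read from its counts about plasma proteins at large.

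Marker genes of the cells that liver can hold were summed per liver on raw totals. The 9 hepatocyte markers other than *Alb* summed to 27590 to 35880 CPM in FXRKO and 16270 to 18680 CPM in BCL6LKOFXRKO livers, with 1 called higher (*Asgr1*) and 3 lower (*Tdo2*, *Cyp2e1* and *Pck1*). The 8 stellate cell markers summed to 218 to 302 and 383 to 470 CPM, with 5 called higher, and the cholangiocyte markers to 45.3 to 71.9 and 74.0 to 122 CPM, with 2 of 5 tested called higher. Leukocyte markers summed to 209 to 279 and 279 to 394 CPM, with 3 of 6 tested called higher, and endothelial markers to 180 to 240 and 199 to 274 CPM, with 1 of 7. The red cell markers summed to 768 to 1138 and 867 to 1379 CPM, with 4 of 5 called higher and *Alas2* lower. Beside these marker counts, 14.1% of all tested genes were called higher and 9.84% lower. No listed marker was at 0 in all livers. The higher *Alb*, *Trf* and *A1bg* stood beside a lower sum of the other hepatocyte markers and higher sums of stellate cell and cholangiocyte markers, whose part in the results was not tested. In whole liver, fewer cells of a type and less RNA per cell cannot be told apart.

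Over 9079 genes whose mean count reached 50, those with log2 CPM running closest to that of *Alb* over the 8 livers were *Kif12* (Pearson's r 0.995), a kinesin, *Ces1c* (0.994), a carboxylesterase of plasma, and *Gbp9* (0.993), a guanylate binding protein. *Ces1c* was at 2285 to 2710 CPM in FXRKO and 5901 to 6294 CPM in BCL6LKOFXRKO livers. For *A1bg* they included *Sult2a1* (0.999), a sulfotransferase of bile acids and steroids, and *Cyp3a16* (0.998), a cytochrome P450 whose reads are uncertain because of close relatives. *Sult2a1* was at 0, 0, 0 and 0.189 CPM in FXRKO livers and at 686, 698, 758 and 713 CPM in BCL6LKOFXRKO livers. These values describe a difference between genotypes that all 8 points share, with 173 genes over an r of 0.95 with *Alb* and 252 with *A1bg*.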

How the data were processed

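Single-end reads of 100 bp were placed on mm10 by the authors with STAR 2.5.2, where a read needed a single location and no more than 4 mismatches. The deposited values are raw counts over exons, made with HOMER 4.10 for 1 transcript of each gene and not normalized. The kit was stranded, but the strand used in counting is not given in the sources used here. They were fitted with edgeR 4.0.16 in R 4.3.3 (filterByExpr, TMM, robust quasi-likelihood fits, Benjamini-Hochberg adjustment over 12340 genes). The study's methods name DESeq2. A call needed a log2 fold change past 0.5 in size with an adjusted p under 0.05. The p-values set the difference between genotypes against the spread between livers of a genotype, as estimated by the fit. CPM used TMM factors, marker sums and the A1bg ratio the raw totals. Log2 CPM for likeness used a prior count of 2. With totals of 7586241 to 11839503 counts, 3 counts were the limit that a count of 0 allows.

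The carriers and the gene lists were chosen with earlier results of these data known. Named were all 10 carriers, the 3 genes with the smallest adjusted p called in each direction of each list, the 3 genes most like Alb and like A1bg, Bcl6 and Nr1h4, predicted genes being passed over, and 1 gene given by that rule is not reported here. Named after their values were seen were the neighbours of Alb and of the fetuin genes, Gm30505, Tfr2, Cebpa, Cebpb and the called markers. So were Orm1, Orm2, Orm3 and Lcn2. Alternatives were DESeq2 1.42.0, limma 3.58.1 voom, RLE factors, total counts alone, the carriers left out before TMM, no filter, a floor of 10 counts for each liver, a log2 limit of 1, each liver left out, and shares per kb and of aligned reads.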

Additional observations from a re-analysis of the deposited data

Results flagged for a closer look

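Among 54 groups of 4 livers checked with Dixon's test, where chance gives about 2.7, 1 had a liver far from the others. In FXRKO liver 3 there were 2.24 Hpx counts per Ambp count, against 2.91 to 3.01 in FXRKO livers 1, 2 and 4, and its gap to the nearest liver was 0.864 of the group's range. The ratio was 4.27 to 5.60 in BCL6LKOFXRKO livers, above all 4 FXRKO livers with liver 3 and without it.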

How the results depend on the processing

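No paired analysis was possible because each liver has an animal number of its own in the labels, which name no pairs, and the groups share no number. With total counts alone, 1267 genes were called higher and 2128 lower, against 1739 and 1214, and with a log2 limit of 1 they were 874 and 421. Leaving out each liver gave 1487 to 1722 genes higher and 1068 to 1357 lower, and 5 to 6 carriers higher and 1 lower. The difference in summed share of 11.3 points was 10.6 points per kb and 9.99 points of aligned reads, the latter chosen after seeing the data, and 10.9 to 11.6 points with each liver left out. The log2 fold change of Ambp, -0.01, was 0.015 where each liver had to reach 10 counts and -0.12 to 0.12 with each liver left out. Ahsg lost its call with voom (0.49), no filter (0.48), total counts alone (0.34), without FXRKO liver 3 (0.47) and without BCL6LKOFXRKO liver 6 (0.37). A1bg could not be tested where each liver had to reach 10 counts. Of the carrier fold changes under alternatives, 126 kept direction and moved by less than 1 SD, 4 moved further (Alb, Rbp4, Gc and Fetub, with total counts alone) and 5, all of Ambp, changed sign. With total counts alone, 11 transcription factors and 8 secretory pathway genes were called lower. At this depth a gene with a few counts, such as A1bg in FXRKO livers, has a level known only within its counting interval.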
